A study of Mus musculus with 9 samples.

Results

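The genes described here are the Smads of bone morphogenetic protein (BMP) signalling and the Id genes that respond to it, measured in RNA from mouse stomach glands. The 9 members are Smad1, Smad5, Smad9, Smad4, Smad6, Smad7, Id1, Id2 and Id3, of 18423 genes in the table. They were chosen by name, and the choice was made with results from these same 9 libraries known, so their own levels and differences are given as a description. Levels are FPKM, fragments per kilobase of transcript scaled to library depth, so levels of different genes can be set beside each other. All 9 members passed the filter on low values, which asked for 1 FPKM or more in 3 or more libraries. Smad9 passed it through the WT libraries alone, so its entry in the test already required it to be higher there.

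Libraries of poly(A) RNA were made from corpus glands, those of the acid-secreting stomach, for 3 genotypes with 3 libraries each. WT mice were wild type. Ctrl mice carried Atp4bCre, a recombinase driven by the promoter of a parietal cell gene, and Rosa26NICD, the intracellular and constitutively active part of Notch placed in the Rosa26 locus. Arid1a_Het mice carried both of these and Arid1aflox/+, 1 floxed allele of the chromatin remodelling gene Arid1a. The name Ctrl therefore stands for the Cre and NICD background that Arid1a_Het shares, and WT has neither transgene. Tissue came from the corpus where it bore tumours, or from the matching place in normal stomachs. Glands were loosened with EDTA and scraped off. The labels give no age, and they leave unsaid whether each library is a mouse of its own, so the spread given here is that between libraries.

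BMP ligands bind pairs of type I and type II serine/threonine kinase receptors. The receptors phosphorylate Smad1, Smad5 and Smad9, the receptor-activated Smads, which join Smad4 and enter the nucleus. Smad6 and Smad7 are inhibitory Smads that are themselves induced by the pathway and damp it: Smad6 acts mainly on BMP signals, and Smad7 also on those of TGF-beta. Id1, Id2 and Id3 are among the most direct BMP targets. Their proteins lack a DNA-binding region and hold E proteins, which are basic helix-loop-helix factors, away from DNA. In the stomach corpus BMP signalling is known for its part in the differentiation of parietal cells and in restraining gland growth.

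Promoter windows are shown for the 3 members that were lower in Ctrl than in WT past the threshold of the test across all genes, Smad1, Smad9 and, only just, Smad6, and for Smad5, which was not. Each runs from 250 bases before to 50 after a RefSeq start on GRCm38.p6, read 5′ to 3′ on the strand of the gene. Capitals mark GGCGCC, a GC-rich motif bound by Smad1 and Smad5, and GTGGGAA, a core motif of RBPJ, the DNA-binding partner of Notch; CAGACA, a longer Smad box, was searched too and had no match in these windows.
Smad1 (chr8:79399379-79399678, minus strand): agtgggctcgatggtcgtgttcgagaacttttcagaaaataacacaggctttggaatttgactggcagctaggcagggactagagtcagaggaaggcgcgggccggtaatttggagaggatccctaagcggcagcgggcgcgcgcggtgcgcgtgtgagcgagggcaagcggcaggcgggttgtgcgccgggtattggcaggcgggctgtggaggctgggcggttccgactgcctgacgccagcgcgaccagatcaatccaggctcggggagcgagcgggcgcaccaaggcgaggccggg
Smad6 (chr9:64022010-64022309, minus strand): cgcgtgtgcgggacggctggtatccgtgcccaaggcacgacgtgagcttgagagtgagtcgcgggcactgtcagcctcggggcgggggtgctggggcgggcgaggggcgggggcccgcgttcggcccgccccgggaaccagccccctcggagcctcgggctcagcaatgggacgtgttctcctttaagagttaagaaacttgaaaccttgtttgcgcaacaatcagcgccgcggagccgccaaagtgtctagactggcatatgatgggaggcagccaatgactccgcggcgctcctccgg
Smad9 (chr3:54755332-54755631, plus strand): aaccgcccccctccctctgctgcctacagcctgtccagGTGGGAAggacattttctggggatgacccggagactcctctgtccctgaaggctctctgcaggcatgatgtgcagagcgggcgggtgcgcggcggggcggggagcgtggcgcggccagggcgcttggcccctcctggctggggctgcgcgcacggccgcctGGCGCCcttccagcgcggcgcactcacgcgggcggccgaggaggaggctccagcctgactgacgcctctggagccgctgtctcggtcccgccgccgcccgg
Smad5 (chr13:56702802-56703101, plus strand): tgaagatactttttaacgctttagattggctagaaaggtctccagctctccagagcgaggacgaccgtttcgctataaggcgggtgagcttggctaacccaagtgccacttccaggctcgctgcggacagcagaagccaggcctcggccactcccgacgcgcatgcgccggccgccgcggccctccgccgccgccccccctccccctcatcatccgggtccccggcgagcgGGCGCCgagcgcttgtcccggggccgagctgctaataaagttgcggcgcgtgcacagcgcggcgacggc
The Smad9 window held 1 GGCGCC at position -51 and 1 GTGGGAA at position -212, where the start base is 0. Smad1 and Smad6 held neither. This Smad5 window held GGCGCC at position -19. Matches were counted on both strands, and the motifs do not overlap here.

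Smad4 and Smad7, which lie on chromosome 18, were left out of the member windows by choice. For the remaining members the RefSeq table gave 8 windows, of the 6 genes Smad1, Smad5, Smad6, Smad9, Id2 and Id3. It held 32851 windows in all. GGCGCC occurred in 11.9% of all windows, GTGGGAA in 6.38% and CAGACA in 21%. A second Smad5 start, whose window overlaps the first, held the same GGCGCC, and the remaining start (chr13:56703418-56703717) held GTGGGAA at position -222. The Id2 window (chr12:25096043-25096342, minus strand) held GGCGCC at position -231, and the Id3 window (chr4:136143572-136143871, plus strand) held none of the 3 motifs. GTCT, the short Smad box, lay in 88% of all windows, so its presence separates little. The spaced element known from Id gene enhancers, GGCGCC followed after 5 bases by GTCT, occurred in 24 windows, 0.0731% of all, and in none of these 8. A match is a description of letters in a window, and no match says nothing of sites elsewhere.

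The libraries held 22651385 to 29478481 reads, worked out from the FPKM steps, and a member held 14 to 13024 reads in a library. The targeted gene Arid1a was at 13.5, 7.79 and 12.0 FPKM in WT 1, 2 and 3, at 14.9, 13.3 and 16.2 in Ctrl and at 8.94, 5.90 and 6.96 in Arid1a_Het. The value of WT 2 lies within the Arid1a_Het range, and no Ctrl library does. Epithelial markers (5 of 5 in the table, Krt19 the highest) summed to 4468 to 10685 FPKM in the 9 libraries. Endothelial markers, of cells that express Smad6 and Id1 strongly, summed over 12 genes to 7.40 to 17.7 FPKM in WT, 7.05 to 8.27 in Ctrl and 6.96 to 11.5 in Arid1a_Het, and 0 of the 3 that passed the filter were called in any comparison. Exocrine pancreas markers summed to 3852 FPKM in Ctrl 1 and to 1513 FPKM in Arid1a_Het 3, while the remaining 7 libraries held 80.2 to 328. Nearly all of the sum in these 7 was 1 gene, Cela1, at 79.4 to 324 FPKM. Cpa1, by contrast, was at 0 in all 7, and at 148 FPKM in Ctrl 1 and 77.5 in Arid1a_Het 3. Calls that a fit without this pair lost are given as such. The record of Arid1a_Het 3 was made separately from the rest.

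The Id genes were the most abundant members. Id1 stood at rank 114 of all genes by mean FPKM, Id2 at 508 and Id3 at 739. Smad4 followed at 2506, Smad6 at 3810, Smad7 at 4027, Smad1 at 5902, Smad5 at 6547 and Smad9 at 10712. In WT the order of mean levels was Id1, Id2, Id3, Smad4, Smad6, Smad7, Smad1, Smad5 and Smad9. Neighbours overlapped there between Id2 and Id3, between Smad4 and Smad6 and between Smad6 and Smad7. In Ctrl and in Arid1a_Het the mean of Smad5 lay above that of Smad1, and in Ctrl that of Smad7 also lay above that of Smad6.

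**Figure D1:**
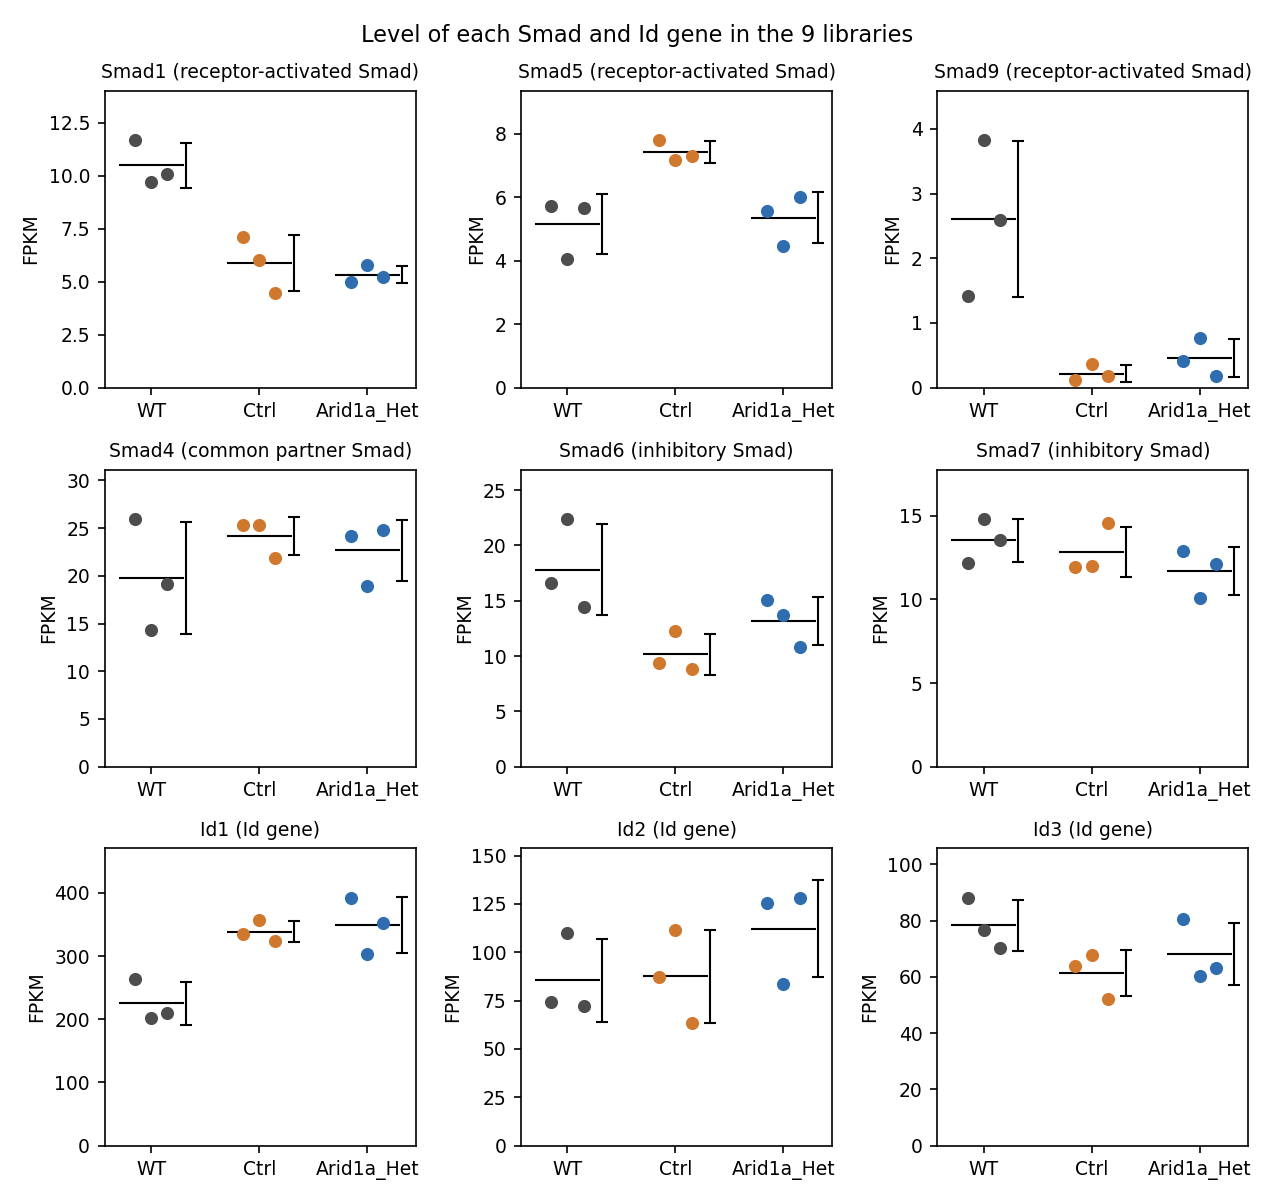
FPKM of each member (y axis, from 0) in WT, Ctrl and Arid1a_Het (x axis), 1 point per library, with the group mean as a line and its SD as a bar (n = 3). Smad1 and Smad9 sit lower in all 6 transgenic libraries than in WT, Id1 sits higher in all 6, and Smad4 and Smad7 overlap between the groups.

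Smad1 (chr8:79338395-79399518, minus strand, GRCm38), a receptor-activated Smad, was at 11.7, 9.69 and 10.1 FPKM in WT 1, 2 and 3. It was at 7.09, 6.04 and 4.48 in Ctrl and at 5.0, 5.77 and 5.21 in Arid1a_Het. Every WT library lay above all 6 others, and Ctrl and Arid1a_Het overlapped. The mean was 10.5 ± 1.05 FPKM (SD, n = 3) in WT, 5.87 ± 1.31 in Ctrl and 5.33 ± 0.40 in Arid1a_Het, so the Ctrl mean was 0.56 times and the Arid1a_Het mean 0.508 times that of WT. On the scale of log2(FPKM + 1), which understates the change of low genes, the difference from WT was -0.76 (SE 0.17) in Ctrl and -0.86 (SE 0.17) in Arid1a_Het.

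Smad5 (chr13:56703010-56742377, plus strand), which carries the same signal, was at 5.73, 4.06 and 5.66 FPKM in WT. It was at 7.80, 7.17 and 7.30 in Ctrl and at 5.58, 4.45 and 6.0 in Arid1a_Het. The 3 Ctrl libraries lay above the other 6, and WT and Arid1a_Het overlapped. Means were 5.15 ± 0.943, 7.42 ± 0.332 and 5.35 ± 0.801 FPKM (SD, n = 3). The log2 difference was 0.47 (SE 0.17) for Ctrl against WT, -0.42 (SE 0.17) for Arid1a_Het against Ctrl and 0.05 (SE 0.17) for Arid1a_Het against WT; the last changed sign without Arid1a_Het 3, without WT 2 and with no pancreas libraries.

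Smad9 (chr3:54755582-54801257, plus strand), the least abundant of these Smads, was at 1.42, 3.83 and 2.59 FPKM in WT, from 177, 541 and 323 reads. In Ctrl it was at 0.115, 0.360 and 0.179 FPKM, from 14, 57 and 26 reads. In Arid1a_Het it was at 0.416, 0.770 and 0.186 FPKM, from 64, 117 and 29 reads. All 6 transgenic libraries lay below the lowest WT library. The Ctrl mean of 0.218 ± 0.127 FPKM (SD, n = 3) was 0.0835 times the WT mean of 2.61 ± 1.2, and the Arid1a_Het mean of 0.457 ± 0.294 was 0.175 times it. Log2 differences from WT were -1.52 (SE 0.26) and -1.27 (SE 0.26).

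The summed FPKM of Smad1, Smad5 and Smad9 was 17.6 to 18.8 in WT, 12.0 to 15 in Ctrl and 11 to 11.4 in Arid1a_Het, with no overlap between any of the groups. Of all genes 43.7% did not overlap for Ctrl against WT, 24.7% for Arid1a_Het against Ctrl and 19.2% for Arid1a_Het against WT. Such a sum carries the scaling between libraries, and the median log2 difference of all genes was -0.163 for Arid1a_Het against Ctrl. The make-up of the sum differed as well. Smad1 held 57.4% ± 4.02 of it in WT (SD, n = 3), 43.1% ± 5.05 in Ctrl and 47.9% ± 3.99 in Arid1a_Het. Smad5 held 28.1% ± 4.36, 55.3% ± 4.99 and 48.0% ± 6.54. Smad9 held 14.5% ± 7.13, 1.64% ± 0.951 and 4.14% ± 2.70. The ratio of Smad1 to Smad5 was 1.78 to 2.39 in WT, 0.614 to 0.910 in Ctrl and 0.868 to 1.3 in Arid1a_Het. Smad1 was thus the more abundant of this pair in all 3 WT libraries, and Smad5 in all 3 Ctrl libraries and in 2 of 3 Arid1a_Het libraries. A ratio within a library is free of the scaling between libraries, but it shows unequal change and not which gene changed.

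**Figure D2:**
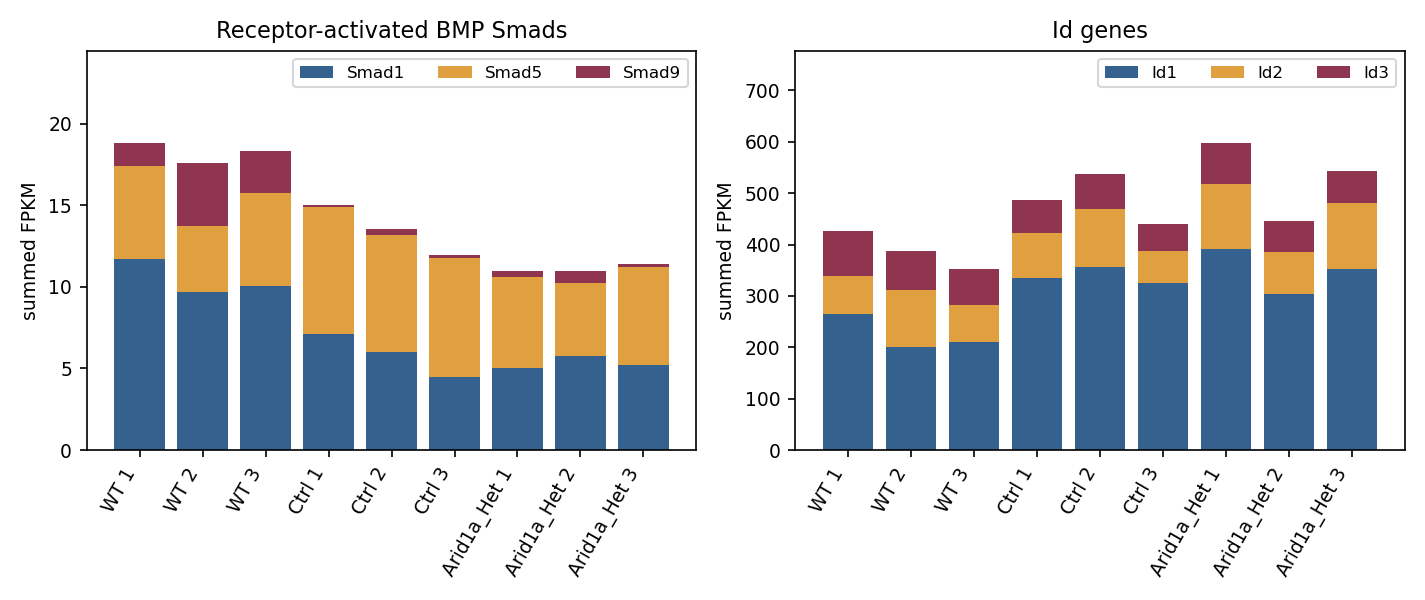
Stacked FPKM (y axis, from 0) of Smad1, Smad5 and Smad9 on the left and of Id1, Id2 and Id3 on the right, 1 bar per library (x axis). The receptor-activated Smads sum to 17.6 to 18.8 in WT with Smad1 the largest share, and Id1 is the largest share of the Id sum in every library.

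Smad4, the common partner of receptor-activated Smads of both the BMP and the TGF-beta branch, was at 25.9, 14.3 and 19.1 FPKM in WT. It was at 25.4, 25.3 and 21.9 in Ctrl and at 24.2, 19.0 and 24.8 in Arid1a_Het. The groups overlapped in each comparison. Means were 19.8 ± 5.84, 24.2 ± 2.0 and 22.7 ± 3.2 FPKM (SD, n = 3). WT held both the highest and the lowest of the 9 values.

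Smad6 (chr9:63953076-64022059, minus strand) was at 16.6, 22.4 and 14.5 FPKM in WT, at 9.38, 12.3 and 8.84 in Ctrl and at 15, 13.7 and 10.8 in Arid1a_Het. The 3 Ctrl libraries lay below the WT libraries, and Arid1a_Het overlapped both. Means were 17.8 ± 4.10, 10.2 ± 1.84 and 13.2 ± 2.16 FPKM (SD, n = 3), and the Ctrl mean was 0.571 times that of WT. The log2 difference was -0.74 (SE 0.20) for Ctrl against WT and -0.40 (SE 0.20) for Arid1a_Het against WT.

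Smad7, the other inhibitory Smad, was at 12.2, 14.8 and 13.6 FPKM in WT, at 11.9, 12.0 and 14.6 in Ctrl and at 12.9, 10.1 and 12.1 in Arid1a_Het. The groups overlapped throughout, with means of 13.5 ± 1.31, 12.8 ± 1.51 and 11.7 ± 1.45 FPKM (SD, n = 3). Smad6 made up 56.5% ± 4.41 of the Smad6 and Smad7 sum in WT, 44.1% ± 6.40 in Ctrl and 52.8% ± 5.24 in Arid1a_Het.

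Id1 (chr2:152736251-152737410, plus strand) was at 264, 201 and 210.2 FPKM in WT. It was at 335, 357 and 324 in Ctrl and at 392, 303 and 352 in Arid1a_Het. All 6 transgenic libraries lay above the highest WT library. The mean was 225 ± 34.2 FPKM (SD, n = 3) in WT, 339 ± 16.7 in Ctrl and 349 ± 44.7 in Arid1a_Het, 1.5 and 1.55 times the WT mean. Log2 differences from WT were 0.60 (SE 0.16) and 0.63 (SE 0.16). The value for Arid1a_Het against Ctrl, 0.04, changed sign without Arid1a_Het 1.

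Id2 (chr12:25093799-25097140, minus strand) was at 74.1, 110.2 and 72.3 FPKM in WT, at 87.3, 112 and 63.6 in Ctrl and at 125, 83.4 and 128 in Arid1a_Het. The groups overlapped in all 3 comparisons, with means of 85.5 ± 21.4, 87.5 ± 24.1 and 112 ± 25 FPKM (SD, n = 3). The SD within a group was close to the distance of the Arid1a_Het mean from the others.

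Id3 (chr4:136143497-136145755, plus strand) was at 88.0, 76.8 and 70.2 FPKM in WT, at 64.0, 67.8 and 52.0 in Ctrl and at 80.6, 60.4 and 63.2 in Arid1a_Het. The Ctrl libraries lay below the WT libraries, and Arid1a_Het overlapped both. Means were 78.3 ± 9.02, 61.3 ± 8.23 and 68.0 ± 10.9 FPKM (SD, n = 3), with a log2 difference of -0.35 (SE 0.17) for Ctrl against WT. Id1 and Id3 thus lay on opposite sides of WT in Ctrl.

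The Id genes together summed to 353 to 427 FPKM in WT, 440.1 to 537 in Ctrl and 447 to 598 in Arid1a_Het. Id3 held 19.8% to 20.6% of the sum in WT, 11.8% to 13.2% in Ctrl and 11.6% to 13.5% in Arid1a_Het, the narrowest range of the 3 genes in each group. Id1 held 57.8% ± 5.32, 69.7% ± 3.66 and 66.1% ± 1.55 (SD, n = 3). The share of Id2, 22.1% ± 5.68 in WT, 17.7% ± 3.19 in Ctrl and 21.1% ± 2.44 in Arid1a_Het, overlapped between the groups.

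**Figure D3:**
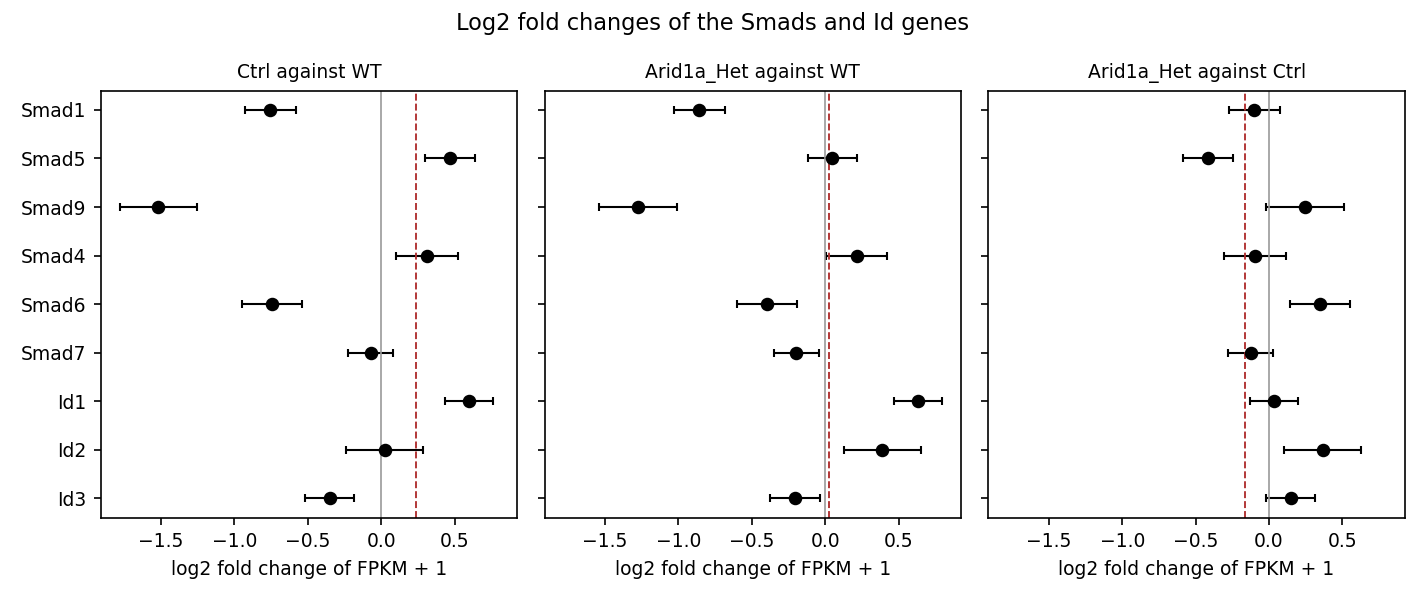
Difference of mean log2(FPKM + 1) for each member (x axis, log2 scale; rows are genes) in the 3 comparisons, with its standard error as a bar; the dashed line is the median of all 11209 genes tested. For Ctrl against WT the median lies at 0.235, with Smad1, Smad6 and Smad9 left of 0 and Id1 right of the median.

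The whole table was shifted between groups in the deposited values. The median log2 difference of the 11209 tested genes was 0.235 for Ctrl against WT, -0.163 for Arid1a_Het against Ctrl and 0.0241 for Arid1a_Het against WT, and median-ratio scaling of the libraries took these to 0.00858, 0.019 and -0.0208. The medians of the 9 members in the same order were -0.07, 0.04 and -0.20. Relative to the median of all genes, the Ctrl against WT differences were -0.99 for Smad1, -1.75 for Smad9, -0.98 for Smad6, -0.59 for Id3 and -0.31 for Smad7. On the same measure they were 0.23 for Smad5, 0.08 for Smad4, 0.36 for Id1 and -0.21 for Id2. Id2 was the member whose sign for Ctrl against WT turned with that scaling, from 0.02 to -0.24, and it also turned without Ctrl 2, WT 1 or WT 3. For Arid1a_Het against Ctrl the signs of Smad1, Smad4 and Smad7 turned with it, from -0.10, -0.10 and -0.13 to 0.08, 0.11 and 0.07. Without Ctrl 1, and with no pancreas libraries, that of Smad1 turned too, and that of Smad4 without Arid1a_Het 2.

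In the test across all genes (limma on log2(FPKM + 1), Benjamini-Hochberg adjusted p under 0.05), 10.1% of the 11209 genes were called for Ctrl against WT, 7.01% higher and 3.04% lower. With median-ratio scaling the split was 599 higher and 589 lower, against 786 and 341. Of the 9 members 3 were called, all lower: Smad1, Smad9 and Smad6. Nothing is read from that count, since the members were chosen on results of these libraries. Smad6 and Id1 lay on either side of the threshold, with limma adjusted p-values of 0.0499 and 0.0505. Smad6 was called in 3 of 17 alternatives, with adjusted p-values up to 0.161. It was not called with a pseudocount of 0.1, no filter, median-ratio scaling, only the groups compared, voom or no pancreas libraries. Smad1 was called in 11 of 17 and Smad9 in 12 of the 13 that tested it. The Smad1 call too was lost with no pancreas libraries. With the replicate numbers of the labels as a block the count was 4, Id1 being the fourth with an adjusted p of 0.03. Without Ctrl 2, without WT 1 and with no pancreas libraries the count was 1 each time, and without Ctrl 3, WT 2 or WT 3 it was 0. The 1 called without WT 1 was Id1, higher. Libraries of the groups did not overlap for 6 of the 9 members, of 43.7% of all genes.

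For Arid1a_Het against WT, 2.75% of all genes were called, 2.06% higher and 0.687% lower. Smad1 and Smad9 were the members called, both lower. The count was 0 without Arid1a_Het 1 or 3, without Ctrl 1 or 2, without any 1 of the WT libraries, and with no pancreas libraries, and 1 without Ctrl 3. Without any 1 WT library Smad9 no longer passed the filter, since it had passed through these 3 libraries. Groups did not overlap for 3 members, Smad1, Smad9 and Id1, and for 19.2% of all genes.

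Between Arid1a_Het and Ctrl limma called 1 gene of 11209, or 0.00892%, and 0 of the members. At an unadjusted p under 0.05 it held 1 member, Smad5, and 1305 genes of the whole table, and limma voom on whole reads called 0 members. Smad5 was also the 1 member whose Arid1a_Het and Ctrl libraries did not overlap, as was the case for 24.7% of all genes. The comparisons share libraries, Ctrl or WT, so their values are not independent of each other.

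Markers of parietal cells, the acid-secreting cells in which Atp4bCre is active, were lower in Ctrl, as were Smad1, Smad6 and Smad9 but not Smad5. Their sum over 5 genes was 2546, 13122 and 5738 FPKM in WT 1, 2 and 3, with Atp4a, a subunit of the gastric proton pump, the highest. It was 178, 928 and 693 FPKM in Ctrl and 1236, 4508 and 326 in Arid1a_Het. For Ctrl against WT 3 of the 5 fell in the limma test, Atp4b, Esrrg and Hrh2, and 0 were at 0 in any library. Within each group the order of the libraries by Smad9 was the same as that by the parietal sum: WT 2 above WT 3 above WT 1, Ctrl 2 above Ctrl 3 above Ctrl 1, and Arid1a_Het 2 above Arid1a_Het 1 above Arid1a_Het 3. The sum of the chief cell markers (5 genes, Pgc, a pepsinogen, the highest) gave this same order in every group. It was 12057, 82457 and 36367 FPKM in WT 1, 2 and 3, 5726, 19463 and 6564 in Ctrl and 13158, 82692 and 7303 in Arid1a_Het. Pgc and Chia1 kept the order in every group. Pga5 did not keep it in Ctrl, Gif did not in Ctrl and Arid1a_Het, and Bhlha15 kept it in none of the groups. The order is thus shared by both sums, but not by every chief cell marker. Smad1 and Smad6 did not keep the full order in any of the 3 groups. WT 1 and Ctrl 1 had the lowest parietal sums and the highest Smad1 of their groups. Smad6 was highest in WT 2 and Ctrl 2, as the parietal sum was, but its remaining libraries ran in another order. In Arid1a_Het the highest Smad1 was in Arid1a_Het 2, as was the highest parietal sum, and the highest Smad6 was in Arid1a_Het 1. The part of cell composition in these results was not tested. In bulk glands fewer cells of a type and less RNA per cell cannot be told apart.

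**Figure D4:**
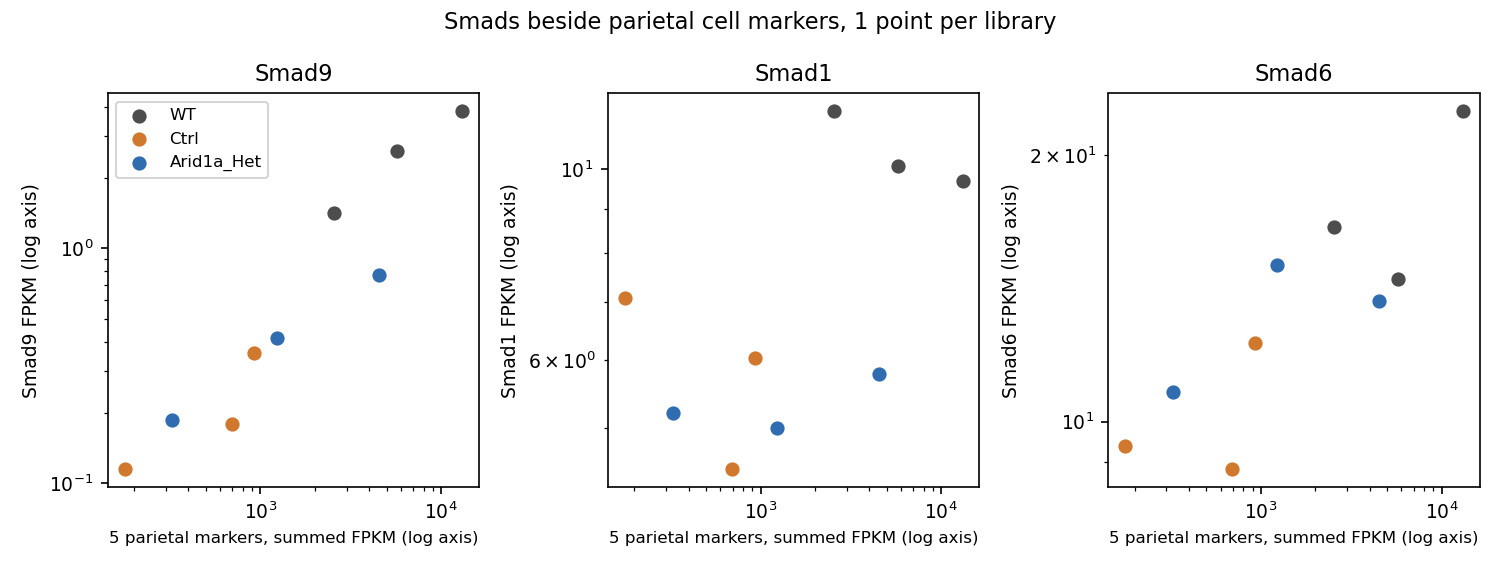
FPKM of Smad9, Smad1 and Smad6 (y axes, log) against the summed FPKM of 5 parietal markers (x axes, log), 1 point per library, coloured by group. Smad9 runs in the same order as the parietal sum within each group, from 0.115 FPKM at a sum of 178 in Ctrl 1 to 3.83 at 13122 in WT 2, whereas Smad1 and Smad6 do not keep that order in any group.

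Markers of other cell types were summed in the same way. Mucous neck cell markers (Muc6 and Tff2) summed to 5066 to 10810.1 FPKM in WT, 5664 to 15240 in Ctrl and 4527 to 8831 in Arid1a_Het. Leukocyte markers summed over 8 genes to 4.33 to 19.2 FPKM in WT, 19.2 to 33.1 in Ctrl and 12.4 to 49.6 in Arid1a_Het, with Cd68 the highest and Cd79a at 0 in some libraries, and 1, Coro1a, rose for Ctrl against WT. Epithelial markers summed to 4468 to 6631 FPKM in WT, 8212 to 8833 in Ctrl and 7358 to 10685 in Arid1a_Het, and 2 of 5, Epcam and Krt18, rose for Ctrl against WT. Pit cell markers (Gkn1, Gkn2, Muc5ac and Tff1) summed to 61014.5 to 84323 FPKM in WT, 34404 to 41375 in Ctrl and 40356 to 74581 in Arid1a_Het. Each had a lower mean in Ctrl than in WT, and 1 of 4, Muc5ac, passed the limma threshold there. Of the squamous markers 1 of 7, Sprr1a, rose in that comparison. Their sum was 46.1 to 362 FPKM in WT, 277 to 719 in Ctrl and 234 to 1009 in Arid1a_Het. Single libraries stood out: Krt13 was at 126, 0.855 and 2.36 FPKM in WT 1, 2 and 3. Krt4 was at 66.4, 37.3 and 322 FPKM in Arid1a_Het 1, 2 and 3. Fibroblast markers (9 genes, Dcn the highest) summed to 8.89 to 96.1 FPKM in WT, 10.1 to 19.7 in Ctrl and 3.86 to 56.0 in Arid1a_Het. Smooth muscle markers (7 genes) summed to 5.18 to 38.7, 5.52 to 8.65 and 5.76 to 25.4 FPKM. Of these last 2 lists 0 genes were called in any comparison by limma. Their part in the members' levels was not tested.

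Of the other genes of the BMP and TGF-beta pathways, 85 of 89 listed symbols were in the table and 57 passed the filter. For Ctrl against WT 7 rose and 4 fell among the 57, where 10.1% of all 11209 genes were called. The count was not tested against that share. The median log2 difference of the 57, 0.199, lay near the 0.235 of all genes. With median-ratio scaling 6 were called higher and 5 lower. The count of 11 was 3 without Ctrl 1, 2 or 3, 2 without WT 2, 1 without WT 3, 17 without Arid1a_Het 2 and 7 with no pancreas libraries. Between Arid1a_Het and WT 5 rose and 1 fell, with a median of 0.0573, where 2.75% of all genes were called. That count of 6 was 1 without Arid1a_Het 1 or WT 3 and with no pancreas libraries, 2 without any other single library except Arid1a_Het 2, and 13 without Arid1a_Het 2. Of the 57, 6 were below 1 FPKM in every WT library, among them 4 of the genes that rose in each comparison. These passed the filter through the transgenic libraries, so their entry in the test already favoured a rise. Bmp6, Fst, Inhba and Ctgf, described below, are among the 6. Limma called 0 of the 57 for Arid1a_Het against Ctrl, where 4 had an unadjusted p under 0.05 and voom called 0. Of all 11209 genes 1305 had an unadjusted limma p under 0.05 there.

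Among the BMP ligands 4 of 13 listed genes were tested. Bmp2, a ligand known for its place in epithelia and bone, was at 21, 30.9 and 24.5 FPKM in WT, 9.32, 11 and 13.3 in Ctrl and 16.4, 23.3 and 14.8 in Arid1a_Het. It fell in Ctrl against WT by 1.11 on the log2 scale (SE 0.22, limma adjusted p 0.0167), and all 3 Ctrl libraries lay below the other 6. For Arid1a_Het against WT the log2 difference of -0.47 had an adjusted p of 0.307. Bmp6, a ligand best known for iron sensing in liver, rose in Ctrl from 0.257 ± 0.228 to 3.98 ± 1.14 FPKM (SD, n = 3), by 1.98 on the log2 scale (SE 0.45, adjusted p 0.0274 by limma). In Arid1a_Het it was at 2.81, 1.06 and 7.89 FPKM, with an adjusted p of 0.0814. Bmp4 stayed at 1.22 FPKM or less in the mean of each group, and Bmp7 at 3.34 or less, with no call. The call of Bmp2 was lost without Ctrl 1, Ctrl 2, WT 2 or WT 3 and with no pancreas libraries, up to an adjusted p of 0.0634, and that of Bmp6 without any 1 of the Ctrl or WT libraries and with no filter, up to 0.113.

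Of 9 receptors and co-receptors 8 were tested. Bmpr1a, a type I receptor, was the most abundant at 27.7 ± 6.29 FPKM in WT, 24.9 ± 1.61 in Ctrl and 25.9 ± 2.09 in Arid1a_Het (SD, n = 3), with no call in any comparison. Bmpr1b, the related type I receptor, was at 1.81, 7.57 and 6.40 FPKM in WT and at 0.636, 0.995 and 0.900 in Ctrl. It fell there by 1.61 on the log2 scale (SE 0.44, limma adjusted p 0.049), a call lost in 11 of 16 alternatives, among them the fit with no pancreas libraries, up to 0.153. In Arid1a_Het it was at 0.673, 2.59 and 0.583 FPKM, and in each group its libraries ran in the order of the parietal and chief cell sums. Bmpr2, the type II receptor specific to BMPs, was at 4.50, 4.31 and 4.23 FPKM in the mean of WT, Ctrl and Arid1a_Het. Acvr2a, a type II receptor shared with activin, was at 8.21 ± 0.43 FPKM in WT, 5.97 ± 0.41 in Ctrl and 5.06 ± 0.18 in Arid1a_Het. It fell for Arid1a_Het against WT by 0.60 on the log2 scale (SE 0.13, limma adjusted p 0.0458), with all 3 libraries lower. The call was lost without any 1 of the 9 libraries, up to 0.236. It was also lost with no filter, a minimum of 5 FPKM, only the groups compared and no pancreas libraries. Acvr2b had the lowest unadjusted p of the list between Arid1a_Het and Ctrl, 0.00486 by limma, at 6.71 ± 0.355 against 10.1 ± 1.33 FPKM.

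The extracellular BMP antagonists were mostly scarce, with 6 of 17 listed genes tested. Fst, which encodes follistatin, a binder of activin and some BMPs, was at 0.221, 0.634 and 0.203 FPKM in WT. It rose to 2.79, 2.13 and 9.18 in Ctrl and to 4.70, 3.11 and 5.86 in Arid1a_Het, by 1.89 (SE 0.41, adjusted p 0.0236) and 2.02 (SE 0.41, adjusted p 0.0341) on the log2 scale by limma. The Ctrl call was lost without WT 2 or WT 3 and with no filter, up to 0.0719. The Arid1a_Het call was lost in 9 of 16 alternatives: without Arid1a_Het 1, Arid1a_Het 3, Ctrl 1 or any 1 WT library, with no filter, with voom and with no pancreas libraries, up to 0.152. Twsg1, a modulator of BMP binding, was the most even of them at 26.8, 28.3 and 28.1 FPKM.

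The other BMP target genes gave 1 call among 4 tested. Hamp2, a hepcidin gene, was at 84.3, 403 and 152 FPKM in WT, at 3.90, 17.1 and 6.28 in Ctrl and at 20.4, 59.5 and 3.59 in Arid1a_Het. It fell in Ctrl against WT by 4.33 on the log2 scale (SE 0.91, limma adjusted p 0.0218), and lost the call without Ctrl 1, Ctrl 3, WT 2 or WT 3 and with no filter, up to 0.0872. Hamp and Hamp2 are close copies, so reads may have been split between them. Its libraries ran in the same order as Smad9 and the parietal and chief cell sums in each group. Id4, the remaining Id gene, was at 5.57 ± 1.83 FPKM in WT, 3.61 ± 1.29 in Ctrl and 3.35 ± 0.376 in Arid1a_Het (SD, n = 3), with a limma adjusted p of 0.21 for Ctrl against WT. Of the E proteins that Id proteins bind, Tcf3 was at 8.56, 15.2 and 11.4 FPKM in the mean of the groups, Tcf4 at 4.80, 3.78 and 3.73, and Tcf12 at 4.87, 6.03 and 5.29. Limma called 0 of these 3 in any comparison; 1 had an unadjusted p under 0.05 for Ctrl against WT.

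In the TGF-beta and activin branch 14 of 20 listed genes were tested. Inhba, which encodes the activin A subunit, was at 0.130, 0.345 and 0.0217 FPKM in WT. It rose to 3.25, 3.18 and 7.85 in Ctrl and to 3.44, 4.66 and 6.41 in Arid1a_Het, by 2.22 (SE 0.31, adjusted p 0.00498) and 2.30 (SE 0.31, adjusted p 0.00686) on the log2 scale by limma. Both calls were kept in all 16 alternatives that tested it, the fit with no filter among them, with adjusted p-values up to 0.0247 and 0.0397. Inhba was below 1 FPKM in every WT library and passed the filter through the transgenic libraries alone. Its entry in the main test thus already favoured a rise, and the alternatives reuse the same libraries. Tgfb1, a TGF-beta ligand, was at 1.34, 1.33 and 0.845 FPKM in WT and rose to 5.05, 5.57 and 5.95 in Ctrl, by 1.59 on the log2 scale (SE 0.32, limma adjusted p 0.0194). In Arid1a_Het it was at 4.12, 2.73 and 9.32 FPKM, with an adjusted p of 0.0517. The Ctrl call was lost without any 1 Ctrl library, WT 2 or WT 3, up to 0.0804. Smad2 and Smad3, the receptor-activated Smads of this branch, had no call: Smad2 was at 19.0, 19.1 and 16.7 FPKM in the mean of the groups, and Smad3 at 10.6, 15.3 and 14.0.

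All 5 listed TGF-beta target genes were tested. Pmepa1, a membrane protein that inhibits TGF-beta signals, rose from 14.5, 16.1 and 19.2 FPKM in WT to 42.2, 41.5 and 45.8 in Ctrl and to 45.1, 29.7 and 77.7 in Arid1a_Het. Its log2 differences were 1.33 (SE 0.29, limma adjusted p 0.024) and 1.46 (SE 0.29, adjusted p 0.0323). Ctgf, a matricellular protein, rose in Arid1a_Het to 8.81, 2.26 and 17.1 FPKM from 0.151, 0.624 and 0.135 in WT, by 2.70 on the log2 scale (SE 0.52, adjusted p 0.0304 by limma). In Ctrl it was at 2.20, 1.14 and 2.41 FPKM, with an adjusted p of 0.163. The Ctrl call of Pmepa1 was lost without any 1 Ctrl or WT library and with no filter, up to 0.0916. Its Arid1a_Het call was lost without Arid1a_Het 1 or any 1 Ctrl or WT library, up to 0.111. It was also lost with no filter, only the groups compared and no pancreas libraries. The call of Ctgf was lost in 12 of 16 alternatives, up to 0.119. These were each library left out except Arid1a_Het 2, no filter, only the groups compared, voom and no pancreas libraries.

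Among the 16 Smad cofactors and regulators, 13 were tested. Tgif1, a repressor that binds Smads, rose in Ctrl to 8.48, 8.38 and 12.9 FPKM from 4.99, 3.52 and 4.71 in WT, by 1.0 on the log2 scale (SE 0.26, limma adjusted p 0.0426). It was at 7.83, 4.6 and 9.44 FPKM in Arid1a_Het, overlapping WT, and the call was lost in 10 of 17 alternatives, the fit with no pancreas libraries included, up to 0.15. Ppm1a, a phosphatase acting on Smads, was the most abundant at 57.3 ± 10.6, 43.7 ± 3.16 and 45.2 ± 6.06 FPKM (SD, n = 3), with no call. Smurf1 and Smurf2, ubiquitin ligases that act with the inhibitory Smads, were at 11.6 and 12.6 FPKM in WT and 18.3 and 15.4 in Ctrl, with limma adjusted p-values of 0.186 and 0.269.

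**Figure D5:**
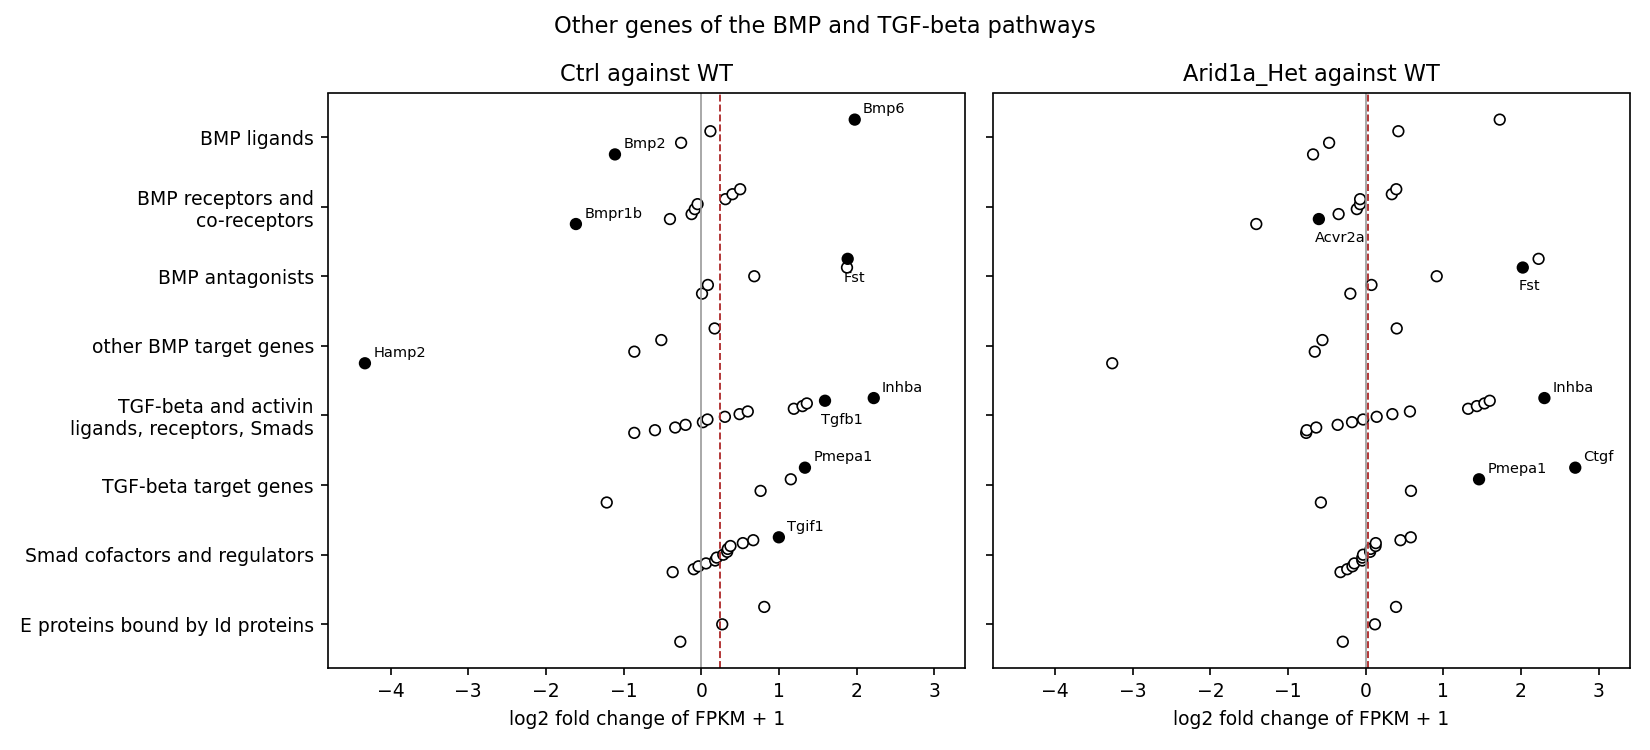
Log2 difference of FPKM + 1 from WT (x axis) for the tested genes of 8 pathway lists (rows), those not reported by name left out, in Ctrl on the left and Arid1a_Het on the right; filled and named points passed the limma threshold, and the dashed line is the median of all genes. In Ctrl 6 filled points lie to the right of 0 and 3 to the left, and in Arid1a_Het 4 and 1.

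The genes with the most similar course over the 9 libraries were named by Pearson r of log2(FPKM + 1), over 11209 genes and with the group differences left in, so r is a description without a test. For Smad1 they were Natd1 (r = 0.977), Mylpf (0.977) and Fam53b (0.976). For Smad5 they were Mphosph9 (0.995), Lsm11 (0.989) and Nepro (0.985). Smad9 ran closest to Ybx2 (0.995), Rph3al (0.994) and Rasgrp3 (0.993). Smad6 ran closest to Kazald1, Slc25a34 and Scp2, with r of 0.940, 0.940 and 0.939.

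Smad4 ran closest to Cdc20, Ccna2 and Fam83d (r of 0.981, 0.979 and 0.979); Cdc20 and Ccna2 are genes of cell division. Id1 ran closest to Cmip (0.971), Notch1 (0.969) and Tmem54 (0.964). Notch1 was at 2.52 FPKM in the mean of WT, 7.84 in Ctrl and 7.20 in Arid1a_Het, and reads of the NICD transgene and of the Notch1 gene itself cannot be told apart here. Id3 ran closest to Wbp2 (0.978), Dctn6 (0.918) and Tmem126b (0.918). Id2 and Smad7 had the loosest companions: Tpi1, at r = 0.893, was the closest to Id2, and Cbarp, at 0.873, the closest to Smad7.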

How the data were processed

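Poly(A) RNA of 9 libraries was measured. The authors deposited FPKM values for 18423 genes. STAR 2.4.2a and the builds GRCm38 and mm10 are named, per the submitters' processing notes; the counting tool is not given in the sources used here. Whole reads, worked out from the FPKM steps, came out whole for 100.0% of genes (tolerance 0.01), at 22651385 to 29478481 per library. Groups follow the genotype in the labels. The test was limma 3.58.1 in R 4.3.3 on log2(FPKM + 1), all 9 libraries in 1 fit with an intensity trend. Genes at 1 FPKM or more in at least 3 libraries were tested (11209; 7214 were left out), at a Benjamini-Hochberg adjusted p under 0.05; the fit was tested on simulated data. SEs are limma's.

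The members and gene lists were chosen with earlier results of these data known. The rule names the members; from each pathway list the called genes, up to 4 of lowest p and the highest; and the 3 genes most like each member. Some genes of the rule, called ones among them, count in the totals but are not reported here by name. Same-numbered libraries of WT and Ctrl lay off their group means together (correlations 0.207, 0.336 and 0.138). The numbers were therefore read as possible pairs for these groups, from the data alone. The main fit was unpaired, and only the replicate block used the numbers. Alternatives were a pseudocount of 0.1, no filter, a minimum of 5 FPKM, median-ratio scaling, only the groups compared, the replicate block, voom on whole reads and each library left out. A fit without Ctrl 1 and Arid1a_Het 3 (no pancreas libraries) was chosen after seeing the data. Gene positions are from GENCODE M21 and promoters from RefSeq, GRCm38.p6.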

Additional observations from a re-analysis of the deposited data

How the results depend on the processing

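Numbers of genes called depended on the settings. None of the alternatives turned the sign of a called member or called pathway gene. That shows little, since called genes lie far from 0 for their SE and the alternatives reuse the same libraries. Signs of members without a call did turn, among them Id2 for Ctrl against WT and Smad5 for Arid1a_Het against WT. For Ctrl against WT the count of all genes called, 1127, became 748 with a minimum of 5 FPKM, 2473 with the replicate block and 574 with no pancreas libraries, and 251 to 1473 when each library was left out. The member count of 3 became 1 with no pancreas libraries and ran from 0 to 3 over libraries left out. The pathway count of 11 became 4 with no filter, 6 at 5 FPKM, 17 in a fit of only the groups compared, 7 with no pancreas libraries and 1 to 17 over libraries left out. With the replicate block it was 16 and the member count 4.

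For Arid1a_Het against WT the 308 genes became 140 with no filter, 105 with only the groups compared, 691 with the block, 114 with no pancreas libraries and 90 to 726 over libraries left out. The 2 members became 1 with a pseudocount of 0.1, at 5 FPKM, with median-ratio scaling and with voom, 0 with no filter, with only the groups compared and with no pancreas libraries, and 0 to 3 over libraries left out. The 6 pathway genes became 1 with no filter, 2 at 5 FPKM, 2 with only the groups compared, 13 with the block, 3 with voom, 1 with no pancreas libraries and 1 to 13 over libraries left out. For Arid1a_Het against Ctrl the 1 gene became 0 with a pseudocount of 0.1 and with voom, 4 with no filter, 2 at 5 FPKM, 5 with only the groups compared, 2 with the block, 7 with no pancreas libraries and 0 to 22 over libraries left out; members and pathway genes stayed at 0. The cause of these changes was not tested.

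Among the named pathway genes 67 of the values for Ctrl against WT and 55 of those for Arid1a_Het against WT no longer passed under an alternative, 3 and 12 newly passed, and 211 and 148 kept their side. Same-numbered libraries of Arid1a_Het deviated unevenly beside those of WT (0.252, 0.563 and -0.279 for numbers 1, 2 and 3) and Ctrl (-0.151, 0.467 and -0.0202). Number 2 deviated together with both and correlated best with its own number. Numbers 1 and 3 did not correlate best with theirs, so for these the block pairs only a shared number. Where an alternative leaves a group with 2 libraries, limma takes the spread over all groups in the fit. Smad9, at 14 to 117 reads in the transgenic libraries, is the member whose level depth limits most.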
